A study of Danio rerio with 48 samples.

Results

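The muscle acetylcholine receptor and the genes that gather it at the synapse were followed in single zebrafish embryos. The 8 listed genes were the receptor subunits chrna1, chrnb1, chrnb1l, chrnd, chrng and chrne, the receptor kinase musk and the scaffold rapsn, chosen by symbol. All 8 were present among the 31658 entries of the counts table. Each embryo, of the RIKEN WT strain and of 1 family carrying the allele agu79, was noc2l -/- (called mutant here) or noc2l +/+ (wild type), and none had any treatment that the labels record. There were 9 mutants and 6 wild types at 24 hours post fertilisation (hpf), 9 mutants and 8 wild types at 36 hpf, and 7 mutants and 9 wild types at 48 hpf. Every library came from 1 whole embryo, and the labels do not describe the lesion of the allele.

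The receptor is a ring of subunits in the muscle membrane that opens when motor nerve endings release acetylcholine. In mammals the fetal ring holds the gamma subunit and the adult ring holds epsilon in its place, and this exchange is a classic sign of synapse maturation. Nerve-derived agrin acts through its receptor Lrp4 on the kinase MuSK, and rapsyn then clusters the receptors beneath the nerve ending. Zebrafish that lack chrna1, chrnd, musk or rapsn are known from mutants with paralysis or abnormal swimming.

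Levels are given in CPM, the counts of a gene per 1000000 counts of its library after TMM adjustment. Libraries held 797752 to 11016313 counts, with a median of 5.99 in units of 1000000. The libraries read mainly 3' ends, so CPM of different genes are counts of tags and are not scaled by length. Contractile muscle genes were abundant in every library (actc1b averaged 4596 CPM and mylpfa 3199 CPM). The targeted transcript noc2l was lower in mutants at 24, 36 and 48 hpf, with log2 differences of -1.93, -1.52 and -1.72 (edgeR adjusted p = 0.00108, 0.00242 and 0.000687), with overlapping ranges, and a 3' tag need not lie within the lesion. The library labelled mutant embryo 5 of 24 hpf had 16.3 CPM of noc2l, where the other mutants of that age reached at most 6.31 CPM and the wild types ran from 6.54 to 31.9 CPM. It also had the lowest contractile transcripts of its group.

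With age, the embryonic subunit chrng fell in both genotypes between 24 and 36 hpf. It read 0.206 times its earlier level in mutants and 0.191 times in wild types. With edgeR chrna1, chrnb1 and chrne had no called change over that interval. Over the same interval musk also fell in both genotypes, a call that in mutants was lost without embryo 2 of 24 hpf. The fall of chrnd was called in wild types and not in mutants, but the difference between these falls did not pass its own test. At 48 hpf chrnd was lower than at 24 hpf in both genotypes. For this longer step chrnb1 was called lower in mutants only. The gene chrna1 was called lower in wild types only, a call lost without wild-type embryo 2 of 24 hpf. For neither gene did the difference between genotypes in this step pass its own test. No called change followed between 36 and 48 hpf, where edgeR called 10.0% of all tested genes in mutants and 14.5% in wild types. Between genotypes, no member passed the test at any age. At 48 hpf, where such calls were most frequent, 1.49% of all tested genes were called higher and 0.712% lower in mutants.

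**Figure D1:**
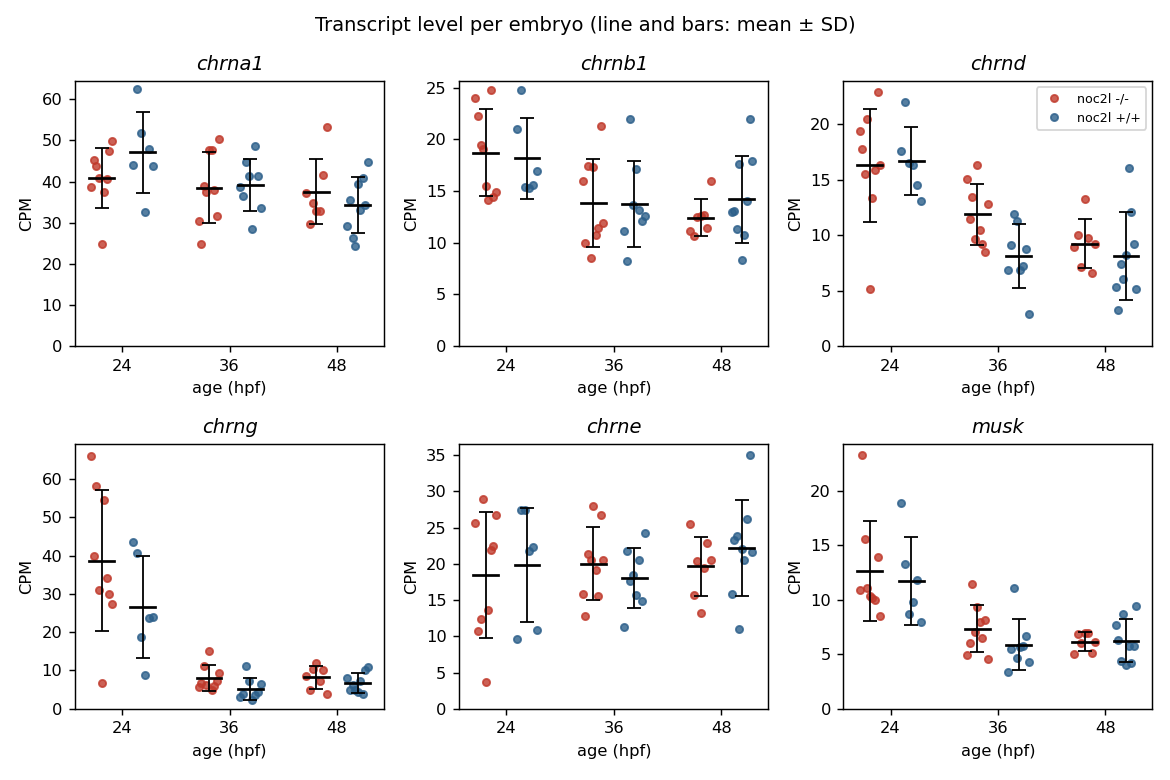
Level in CPM (vertical axes) of the 6 tested members against age in hpf, with mutants left of wild types at each age. Each point is 1 embryo and the black line and bars give the mean and SD. The points of chrng drop after 24 hpf in both genotypes, whereas those of chrne overlap at all 3 ages.

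Of the 8 members 6 passed the filter on low counts and were tested, namely chrna1, chrnb1, chrnd, chrng, chrne and musk, and each had counts in all 48 libraries. The other 2, chrnb1l and rapsn, were too rare to pass this filter in the main fit, and no test value of them is given. When the 6 groups were put in order of a tested member's mean, the ranges of neighbours in that order overlapped for every member.

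The gamma subunit gene chrng changed most. At 24 hpf it ran from 6.65 through a median of 34.2 to 66.0 CPM in mutants, and from 8.72 through 23.8 to 43.6 CPM in wild types. At 36 hpf it ran from 4.98 through 6.62 to 15.1 CPM in mutants, and from 2.29 through 4.10 to 11.1 CPM in wild types. At 48 hpf the lowest, median and highest values were 3.82, 8.62 and 11.9 CPM in mutants and 3.76, 6.2 and 10.8 CPM in wild types. Of the 24 hpf embryos, 8 of 9 mutants lay above every 36 hpf mutant, and 5 of 6 wild types lay above every 36 hpf wild type. The exceptions were mutant embryo 5, with 18 counts of chrng, and wild-type embryo 4, with 8 counts in the shallowest library.

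Relative to 24 hpf, chrng at 36 hpf read 0.206 times its level in mutants (log2 difference -2.28, SE 0.30, edgeR adjusted p = 1.41e-07). In wild types it read 0.191 times (log2 difference -2.38, SE 0.35, edgeR adjusted p = 2.71e-06). Without mutant embryo 5 the difference in mutants was -2.40, and without wild-type embryo 4 that in wild types was -2.51. By 48 hpf the log2 difference from 24 hpf was -2.26 in mutants and -2.10 in wild types (edgeR adjusted p = 3.21e-07 and 2.64e-06). From 36 to 48 hpf chrng differed by 0.02 in mutants and 0.29 in wild types (edgeR adjusted p = 0.984 and 0.664). The 95% intervals of this later step were -0.64 to 0.67 in mutants and -0.39 to 0.97 in wild types.

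The epsilon subunit gene chrne, whose product takes the same place in the ring, had no called change. Its lowest, median and highest levels at 24 hpf were 3.69, 21.9 and 29 CPM in mutants and 9.65, 22 and 27.5 CPM in wild types. At 36 hpf they were 12.8, 20.5 and 28.1 CPM in mutants and 11.3, 18.1 and 24.2 CPM in wild types. At 48 hpf they were 13.3, 20.4 and 25.5 CPM in mutants and 11, 22 and 35 CPM in wild types. All 6 groups overlapped, and the highest group mean, 22.1 CPM in wild types at 48 hpf, and the lowest, 18.1 CPM in wild types at 36 hpf, were closer than the spread within groups. Between 48 and 24 hpf chrne differed by 0.09 (SE 0.23) in mutants and by 0.14 (SE 0.26) in wild types on the log2 scale (edgeR adjusted p = 0.84 and 0.737). Without mutant embryo 5 of 24 hpf the difference in mutants was -0.02 (edgeR adjusted p = 0.957).

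The log2 ratio of chrng to chrne in the same embryo, from log2 CPM with a prior count of 2, largely cancels library scaling. Its median at 24 hpf was 0.79 in mutants (range 0.04 to 2.2) and 0.32 in wild types (range -1.29 to 2.14). At 36 hpf it was -1.35 in mutants (range -1.87 to -0.88) and -1.81 in wild types (range -2.60 to -0.66). At 48 hpf it was -1.37 in mutants (range -2.32 to -0.16) and -1.75 in wild types (range -2.69 to -0.93). Every mutant at 24 hpf lay above every older mutant, and wild-type embryo 4 was the 1 wild type at 24 hpf within the range of both older wild-type groups. Since tag counts of different genes need not be comparable, the shift with age can be read from these values and the sign cannot.

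**Figure D2:**
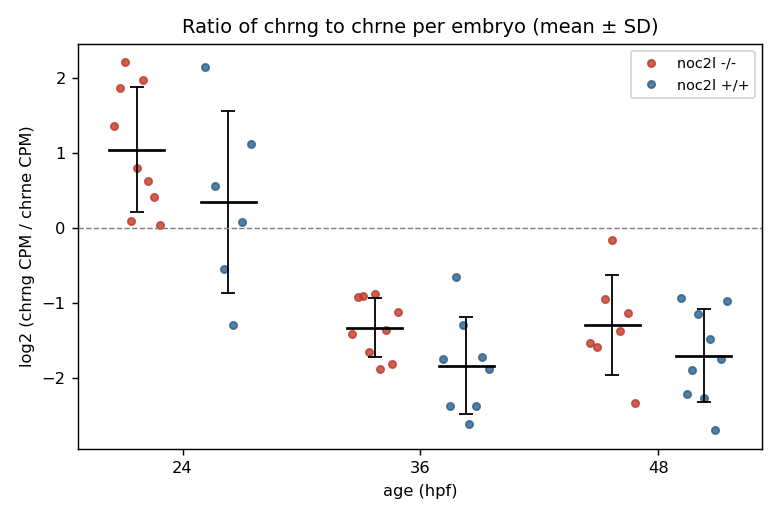
Log2 ratio of chrng to chrne in each embryo (vertical axis) against age in hpf, mutants left of wild types, with the mean and SD in black. The ratio is highest at 24 hpf, with medians of 0.79 in mutants and 0.32 in wild types, and all embryos at 36 and 48 hpf lie below 0.

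The other subunits of the ring changed less than chrng. The alpha subunit gene chrna1, which encodes most of the acetylcholine binding site, averaged 40.9 ± 7.28 CPM in mutants (SD, n = 9) and 47.1 ± 9.86 CPM in wild types (n = 6) at 24 hpf. It averaged 38.5 ± 8.75 CPM in mutants (n = 9) and 39.2 ± 6.37 CPM in wild types (n = 8) at 36 hpf, and 37.5 ± 7.93 CPM in mutants (n = 7) and 34.2 ± 6.81 CPM in wild types (n = 9) at 48 hpf. Its 48 hpf level was lower than that at 24 hpf in wild types (log2 difference -0.49, SE 0.15, edgeR adjusted p = 0.00862). This call was lost without wild-type embryo 2 of 24 hpf, at -0.38 (edgeR adjusted p = 0.0671). The same difference in mutants was -0.13 and did not pass (edgeR adjusted p = 0.573).

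The delta subunit gene chrnd had 5.17, 16.4 and 22.9 CPM as lowest, median and highest values in mutants at 24 hpf, and 13.1, 16.4 and 22 CPM in wild types. At 36 hpf it had 8.47, 11.5 and 16.3 CPM in mutants and 2.87, 7.98 and 11.9 CPM in wild types. At 48 hpf it had 6.55, 9.20 and 13.3 CPM in mutants and 3.26, 7.41 and 16.1 CPM in wild types. All 8 wild types at 36 hpf lay below all 6 wild types at 24 hpf, a log2 difference of -1.05 (SE 0.26, edgeR adjusted p = 0.00317). In mutants the same step read -0.46 (SE 0.21, edgeR adjusted p = 0.182), and the full step to 48 hpf read -0.84 (SE 0.24, edgeR adjusted p = 0.00415), beside -1.01 in wild types (SE 0.25, edgeR adjusted p = 0.00108). Without mutant embryo 5 of 24 hpf these differences in mutants were -0.56 and -0.94 (edgeR adjusted p = 0.0744 and 0.000819). The step to 36 hpf differed between genotypes by 0.59 (SE 0.33), a difference that did not pass its own test (edgeR adjusted p = 0.899).

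The beta subunit gene chrnb1 averaged 18.7 ± 4.22 CPM in mutants (n = 9) and 18.2 ± 3.91 CPM in wild types (n = 6) at 24 hpf. It averaged 13.8 ± 4.28 CPM in mutants (n = 9) and 13.8 ± 4.14 CPM in wild types (n = 8) at 36 hpf, and 12.4 ± 1.76 CPM in mutants (n = 7) and 14.2 ± 4.22 CPM in wild types (n = 9) at 48 hpf. Between 48 and 24 hpf it fell in mutants (log2 difference -0.60, SE 0.19, edgeR adjusted p = 0.0122), and read -0.40 in wild types (SE 0.20, edgeR adjusted p = 0.147). With limma voom the wild-type difference, at -0.56, passed as well (limma adjusted p = 0.0437). The neighbour chrnb1l, listed as the next gene on chromosome 7 in the RefSeq table of GRCz12tu, had 165 counts in all libraries together and was at 0 in 18 of them. Its highest level was 3.48 CPM, in wild-type embryo 1 at 48 hpf. Whether reads fit both genes, and how the counting treated such reads, was not tested, so the split between these genes is uncertain.

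The kinase gene musk, which starts receptor clustering, had 8.50, 10.9 and 23.3 CPM as lowest, median and highest values in mutants at 24 hpf, and 7.92, 10.8 and 18.9 CPM in wild types. At 36 hpf it had 4.57, 7.05 and 11.4 CPM in mutants and 3.41, 5.54 and 11.1 CPM in wild types, and at 48 hpf 5.01, 6.08 and 6.99 CPM in mutants and 4.03, 5.73 and 9.41 CPM in wild types. All 7 mutants at 48 hpf lay below all 9 mutants at 24 hpf. From 24 to 36 hpf musk fell, with a log2 difference of -0.79 in mutants (SE 0.22, edgeR adjusted p = 0.00897) and of -1.01 in wild types (SE 0.26, edgeR adjusted p = 0.00575). Without mutant embryo 2 of 24 hpf, the highest of all, the difference in mutants was -0.60 and no longer passed (edgeR adjusted p = 0.0678). At 48 hpf the differences from 24 hpf were -1.04 and -0.94 in mutants and wild types (edgeR adjusted p = 0.000389 and 0.00269).

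The scaffold gene rapsn was at the edge of detection, with 41 counts in all 48 libraries, no count in 31 of them and at most 8 counts, or 0.972 CPM, in 1. A count of 0 allows up to 3 counts, which in those 31 libraries is 0.268 to 3.27 CPM. Such limits cover counting error only. The agrin receptor gene lrp4 was likewise near 0, with 28 counts in all and no count in 38 libraries, whereas agrn had 5501 counts. Whether the annotation behind the counts holds the 3' ends of rapsn and lrp4 was not tested, so their near-0 counts of 3' tags need not mean low transcript levels. No change of rapsn or chrnb1l could be read from these counts.

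By count, 2 of 6 tested members were lower at 36 than at 24 hpf in mutants, where 4.97% of all 16431 tested genes were called lower, and 3 of 6 in wild types, where 3.52% were. For 48 against 24 hpf 4 of 6 were lower in mutants and 4 of 6 in wild types, beside 13.8% and 13.5% of all genes. No member was called higher in these comparisons, in which 6.09% and 13.9% of all genes were called higher in mutants and 4.95% and 14.0% in wild types. Between 48 and 36 hpf no member was called in mutants or wild types with edgeR, DESeq2 or limma voom, nor had any an unadjusted p under 0.05, beside 10.0% and 14.5% of all genes called by edgeR in either direction. The median log2 difference of the 6 members from 24 to 36 hpf was -0.45 in mutants and -0.71 in wild types, and that of all tested genes was -0.01 and 0.01.

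**Figure D3:**
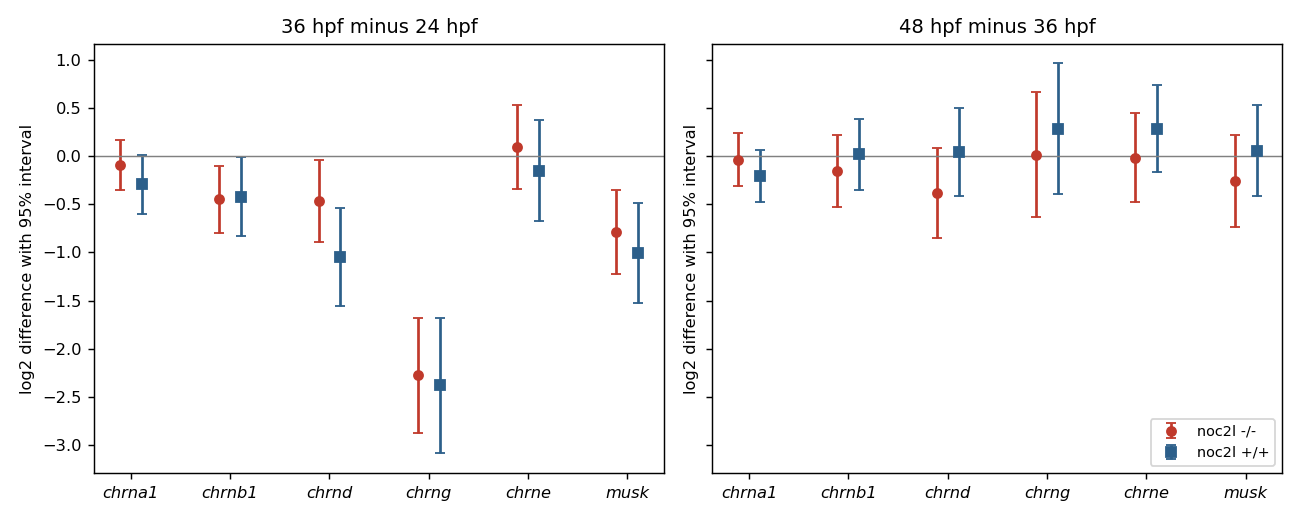
Log2 difference between ages with its 95% interval (vertical axes) for each tested member, mutants left of wild types. From 24 to 36 hpf chrng stands at -2.28 in mutants and -2.38 in wild types, and from 36 to 48 hpf every interval includes 0.

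These falls took place while contractile muscle transcripts became more abundant. The summed level of 32 contractile genes had a median of 17950 CPM in mutants and 20479 CPM in wild types at 24 hpf. At 36 hpf it was 35556 CPM in mutants and 41810 CPM in wild types, and at 48 hpf 52586 CPM in mutants and 63458 CPM in wild types. Of 30 tested contractile genes 17 rose and 1 fell from 24 to 36 hpf in mutants, and 18 rose and 1 fell in wild types. Over all genes, for this step, 6.09% rose and 4.97% fell in mutants and 4.95% rose and 3.52% fell in wild types. In whole embryos fewer cells of a type and less RNA per cell cannot be told apart. With the mean of the contractile list as a covariate, chrng read -2.20 and -2.29 for this step in mutants and wild types (edgeR adjusted p = 0.00124 and 0.00707). The differences of musk were -0.56 and -0.75 and no longer passed (edgeR adjusted p = 0.469 and 0.309), beside -0.79 and -1.01 without the covariate. Over all genes the covariate cut the calls for this step from 1818 to 453 in mutants and from 1392 to 587 in wild types. A difference between chrng and musk was not tested. With the covariate chrne read -1.23 in mutants and -1.36 in wild types for 48 against 24 hpf, beside 0.09 and 0.14 without it (edgeR adjusted p with the covariate 0.00718 and 0.00723). The list rises with age itself, so this covariate overlaps with the comparison of ages.

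Myogenic regulators, transcription factors and fusion proteins that act in muscle formation, had called falls and no called rises over this step. The highest differences in this list, uncalled, were 0.22 in mutants and 1.40 in wild types. Of 14 tested members 5 were lower at 36 than at 24 hpf in mutants and 4 in wild types, where 4.97% and 3.52% of all genes were. Among them myog, myogenin, which in mammals binds the promoters of receptor subunit genes, read -1.42 in mutants and -1.32 in wild types (edgeR adjusted p = 3.45e-07 and 2.99e-05), and mef2ca read -1.49 and -1.38 (edgeR adjusted p = 3.06e-09 and 1.28e-06). Of 17 tested partners at the synapse 1 rose and 1 fell in each genotype, shares near those of all genes. The gene that rose was ache, the acetylcholinesterase that clears the transmitter, at 0.87 in mutants and 0.65 in wild types (edgeR adjusted p = 0.000425 and 0.0492), and the gene that fell was dag1, dystroglycan, at -0.76 and -0.89 (edgeR adjusted p = 4.78e-05 and 8.10e-05). These 4 genes were singled out after their values were seen. From 36 to 48 hpf 3 myogenic regulators were higher and 1 lower in mutants, and 2 higher and 1 lower in wild types. Of all genes 10.0% and 14.5% were called in either direction for that step. Among the regulators mef2ca rose in mutants and wild types (0.84 and 0.66, edgeR adjusted p = 0.000977 and 0.00994) and myog in wild types (0.75, edgeR adjusted p = 0.00626). No receptor member was called over that step. A link between these regulators and the receptor genes was not tested.

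For 48 against 24 hpf, 13.9% of all genes were higher and 13.8% lower in mutants, and 14.0% higher and 13.5% lower in wild types. On the nerve side, cholinergic motor neuron genes had 4 of 8 tested members higher at 48 than at 24 hpf in mutants and 5 of 8 in wild types, with medians of 0.80 and 0.91. Markers of differentiated neurons in general had 11 of 11 higher in mutants and 10 of 11 in wild types, with medians of 1.55 and 1.41. The rise was therefore not particular to motor neuron genes. The 10 tested neuronal receptor subunits had none called in mutants and 2 higher in wild types for the same step. Neither the difference from the shares of all genes nor that from the muscle subunits was tested. Excitation-contraction coupling genes, which link the membrane signal to calcium release, had 8 of 17 higher and 2 lower in mutants and 5 higher and 1 lower in wild types for the same step.

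The comparison of genotypes asked whether receptor transcripts differ between noc2l -/- and noc2l +/+ embryos. No member was called in a comparison of genotypes with or without any 1 library. At 24 hpf none of the 6 tested members was called, where 0.110% of all genes were called higher and 0.0122% lower in mutants. None was called at 36 hpf, where 0.615% were higher and 0.0913% lower, nor at 48 hpf, where 1.49% were higher and 0.712% lower. With DESeq2 and limma voom the count was 0 at each age as well, and the number with an unadjusted edgeR p under 0.05 was 0, 1 and 0. The medians of the 6 differences were 0.00, 0.24 and 0.07, beside 0.02, -0.01 and -0.02 for all tested genes.

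The 1 member with an unadjusted p under 0.05 was chrnd at 36 hpf. Its mean was 11.9 ± 2.71 CPM in mutants (n = 9) and 8.11 ± 2.87 CPM in wild types (n = 8), a log2 difference of 0.55 (SE 0.23, 95% interval 0.10 to 1.01). All 9 mutants lay above the wild-type median and 4 above every wild type. The difference did not pass the correction over all genes (edgeR adjusted p = 0.475). At 24 and 48 hpf it read -0.03 and 0.13 (edgeR adjusted p = 0.99 and 0.921).

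For chrng the mutant mean was the higher at every age. It was 38.7 ± 18.3 CPM in mutants (n = 9) and 26.6 ± 13.3 CPM in wild types (n = 6) at 24 hpf, 8.05 ± 3.28 CPM (n = 9) and 5.26 ± 2.88 CPM (n = 8) at 36 hpf, and 8.19 ± 2.98 CPM (n = 7) and 6.68 ± 2.58 CPM (n = 9) at 48 hpf. The log2 differences of 0.51, 0.61 and 0.35 had SE of 0.32, 0.33 and 0.33 and did not pass (edgeR adjusted p = 0.735, 0.704 and 0.821). Without mutant embryo 5 the difference at 24 hpf was 0.64 (edgeR adjusted p = 0.647). Their 95% intervals reached from -0.14 to 1.16, -0.05 to 1.27 and -0.33 to 1.02, so the direction could not be told at this number of embryos.

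An age score, built from genes that change with age in wild types, had a lower mean in mutants at each age, with overlapping ranges. The score was not tested between genotypes, and whether it measures developmental age in mutants was not tested either. This age score, the mean log2 CPM of 200 genes that rise in wild types between 24 and 48 hpf minus that of 200 that fall (picked from these wild types without the embryo scored), averaged -2.36 in mutants and -1.93 in wild types at 24 hpf. At 36 hpf the averages were -0.25 (mutants) and -0.01 (wild types), and 48 hpf embryos averaged 1.88 (mutants) and 2.61 (wild types). The highest mutant score at 24 hpf, -1.96, lay below the wild-type median of -1.91. At 48 hpf mutants reached 2.35, and among wild types only embryo 9, from a shallow library, lay lower, at 1.87. With this score as a covariate chrng differed by 0.19 at 24 hpf, 0.43 at 36 hpf and -0.31 at 48 hpf (edgeR adjusted p = 0.905, 0.739 and 0.76). No other member was called with it either. The alternatives other than leaving out 1 library included this covariate. Among them the 48 hpf differences reached -0.48 for chrnb1, -0.43 for musk and 0.37 for chrnd. The part of developmental age in the differences without this covariate was not tested.

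The remaining members had narrower intervals than chrng. That of chrna1 ran, at 24, 36 and 48 hpf, from -0.52 to 0.07, -0.29 to 0.24 and -0.14 to 0.42. For chrne the estimates were -0.10, 0.15 and -0.15, for chrnb1 0.04, 0.01 and -0.17, and for musk 0.10, 0.32 and 0.01, in order of age, with edgeR adjusted p of 0.856 or more. Every interval of these 4 genes included 0. For no member did the change of the genotype difference between 2 ages pass (edgeR adjusted p of 0.749 or more over the 3 contrasts of ages). Without adjustment no edgeR p was under 0.05 in any of these contrasts. Limma voom gave 1 for 36 against 24 hpf and 1 for 48 against 24 hpf, none adjusted, and DESeq2 gave none. Over all genes edgeR called 0% for 36 against 24 hpf, 0.0548% for 48 against 36 hpf and 0.0609% for 48 against 24 hpf.

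**Figure D4:**
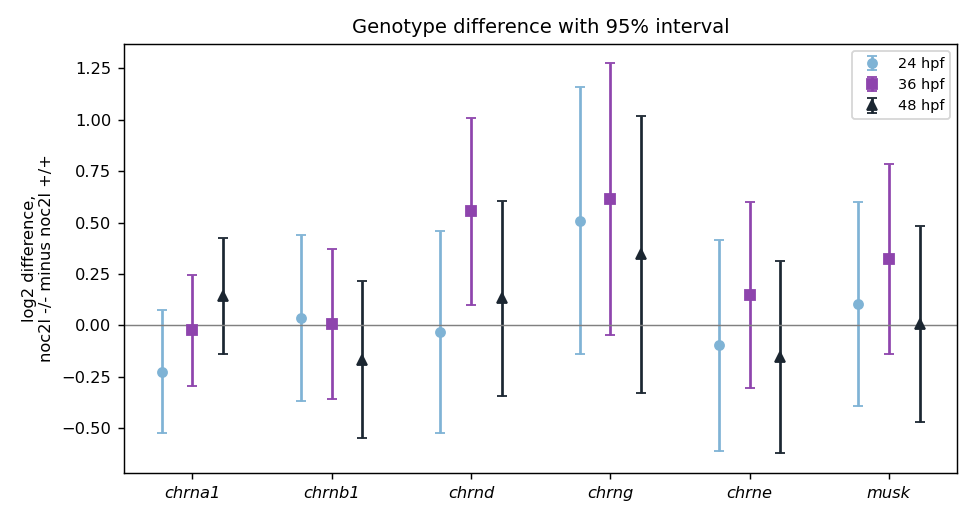
Log2 difference between mutants and wild types with its 95% interval (vertical axis) for each tested member at 24, 36 and 48 hpf. Of 18 intervals only that of chrnd at 36 hpf, from 0.10 to 1.01, leaves out 0, before any correction for multiple tests.

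Among the related lists, 17 synaptic partners, 10 neuronal subunits, 8 motor neuron genes, 17 excitation-contraction coupling genes and 14 myogenic regulators were tested. None of these was called between genotypes at any age with edgeR. Of all genes 0.110% were higher and 0.0122% lower in mutants at 24 hpf, 0.615% and 0.0913% at 36 hpf, and 1.49% and 0.712% at 48 hpf. At such shares few calls would be met in lists of this size. Of 30 tested contractile genes 1 was lower in mutants at 36 hpf, acta1a, a skeletal actin (-0.90, edgeR adjusted p = 0.00246). At 48 hpf 1 was lower as well, tnnt3a, a fast troponin T (-0.67, edgeR adjusted p = 0.0423).

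Embryos of the same group differed in their muscle transcripts. The relation of each member to these deviations was tested against 0, and differences between members were not tested. Deviations from the group mean were correlated with those of the contractile list over 48 embryos, with permutation within groups and adjustment over 12 tests. Both measures come from the same library and share its depth. For chrne Pearson's r was 0.69 (permutation p = 7.00e-05, adjusted p = 0.00084) and Spearman's rho 0.56 (permutation p = 0.00032, adjusted p = 0.00192). Its r was 0.48 without the 2 embryos farthest from the median of the list, mutant embryo 5 and wild-type embryo 1 of 24 hpf. For chrnd r was 0.50 and rho 0.35 (permutation p = 0.00171 and 0.0165, adjusted p = 0.00684 and 0.0395), with r = 0.36 without these 2. For chrna1 r was 0.40 and rho 0.34 (permutation p = 0.00833 and 0.0218, adjusted p = 0.025 and 0.0436), with r = 0.24 without them, so that much of this relation rests on those embryos. The relations of chrne and chrnd also rest in part on those embryos, and no relation was tested without them. The relation did not pass for chrnb1 (r = 0.10, rho = 0.08), chrng (r = 0.09, rho = -0.17) or musk (r = -0.14, rho = -0.15), whose permutation p-values were 0.28 or more, adjusted 0.48 or more. Without the same 2 embryos r was -0.23 for chrng, 0.09 for chrnb1 and -0.15 for musk. Mutant embryo 5 of 24 hpf had the lowest contractile sum, 7810 CPM, and the lowest chrng, chrnd and chrne of its group.

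**Figure D5:**
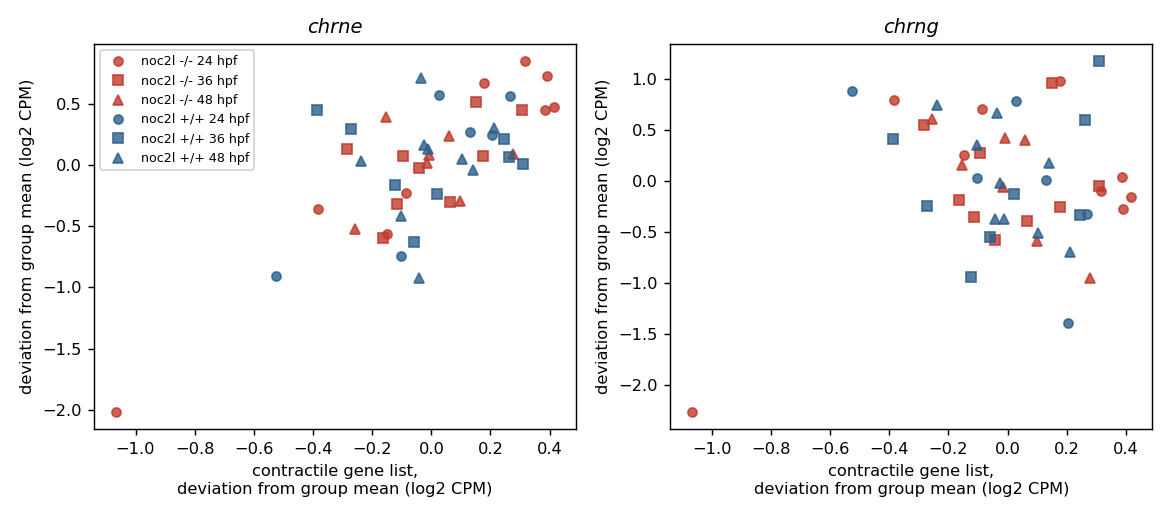
Deviation of chrne (left) and chrng (right) from the group mean in log2 CPM, against the deviation of the mean of the contractile gene list, for 48 embryos. Points of chrne rise with the list (r = 0.69), those of chrng have r = 0.09 (-0.23 without the 2 extreme embryos), and mutant embryo 5 of 24 hpf is the isolated point at lower left in both panels.

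The genes whose deviations over the 48 embryos were most like those of a member were picked from all tested genes, so their r is a description with no p. Those of chrne were muscle genes: cavin4b, a caveola protein of muscle (r = 0.79), mybpc2b, a fast myosin-binding protein (0.75), and neb, nebulin of the thin filament (0.73). Nearest to chrnd were actc1a, an actin (0.69), METTL21EP (0.68) and shha, the hedgehog ligand of notochord and floor plate (0.65). Nearest to chrng were CABZ01064671.1 (0.74), hspb1, a small heat shock gene (0.65), and si:dkey-195m11.8 (0.64). The list of chrna1 was si:dkeyp-86d6.2 (0.60), mef2ca (0.58) and stmn3 (0.56), and that of chrnb1 was mttp (0.63), si:ch211-286o17.1 (0.62) and tnni2b.1, a fast troponin I (0.60). For musk it was si:ch211-286o17.1 (0.65), cd81a (0.58) and atp2b4 (0.58). Without the 2 embryos farthest from the median of the named gene these r lay between 0.49 and 0.66. Among the members themselves the closest pairs were chrna1 and chrne (r = 0.49, rho = 0.38) and chrnb1 and musk (r = 0.49, rho = 0.44), and chrne and musk had r = -0.16.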

How the data were processed

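Single-embryo 3' mRNA libraries (Lasy-Seq, per the labels' protocols) were analysed from the deposited table of expected counts per gene symbol, which the authors did not normalise. Tools listed in the submitters' processing notes are BWA 0.7.17-r1188, Salmon and fastp 0.21.0, with build GRCz11. Order of steps, annotation and strand handling are not given in the sources used here. Expected counts were rounded (2 values were not whole).

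Genes were kept by filterByExpr (minimum count 10), leaving 16431. TMM factors and robust quasi-likelihood F-tests came from edgeR 4.0.16 (R 4.3.3), fitting all 48 libraries with a mean for each of 6 groups and Benjamini-Hochberg adjustment over all genes at 0.05. SE and 95% intervals derive from the F statistic, and signed values are mutant minus wild type or later minus earlier age. limma 3.58.1 and DESeq2 1.42.0 served as alternatives. Log2 CPM used a prior count of 2. The test was run on simulated counts with set genotype differences and no change with age, which does not check the comparisons of ages. All pairs within a group differed beyond counting noise (chi-square per degree of freedom at least 5.26). P-values concern embryos of 1 family. Members, gene lists and tests were chosen with earlier results of these data known. Text names all members, noc2l, at most 3 called genes per list and comparison of genotypes or ages, and the 3 genes most alike to each member. Also named, without regard to any call, are actc1b and mylpfa as muscle markers, and agrn and lrp4. The deposited metadata table, which describes the libraries, was left out.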

Additional observations from a re-analysis of the deposited data

Results flagged for a closer look

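In 4 of 42 sets of values examined (6 members and the ratio of chrng to chrne in 6 groups), 1 embryo stood apart from the rest of its group by Dixon's gap test, which chance alone does in about 1 of 20 groups. The level of chrna1 in mutant embryo 5 at 24 hpf was 24.8 CPM, the next lowest mutant being at 37.4 CPM. The level of musk in mutant embryo 2 at 24 hpf was 23.3 CPM, next to 15.5 CPM. The level of chrnb1 in mutant embryo 7 at 48 hpf was 16 CPM, next to 12.7 CPM. The level of musk in wild-type embryo 3 at 36 hpf was 11.1 CPM, next to 6.70 CPM.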

How the results depend on the processing

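Between genotypes, and for differences of the genotype effect between ages, the count of called members was 0 under every alternative run, and the lowest adjusted p of any member was 0.54, 0.108 and 0.246 at 24, 36 and 48 hpf. The falls of chrng from 24 to 36 and to 48 hpf kept their call in both genotypes under every alternative run for ages, which did not include the age score. Leaving out 1 library at a time, the count for 36 against 24 hpf in mutants ran from 1 (without mutant embryo 2 of 24 hpf) to 3 (without mutant embryo 8 of 36 hpf). With limma voom chrnb1 also passed there (-0.51, limma adjusted p = 0.0303). With the contractile list as covariate musk lost its calls and chrne reversed, to -1.23 in mutants and -1.36 in wild types for 48 against 24 hpf (edgeR adjusted p = 0.00718 and 0.00723), with the list itself rising with age. Calls of chrnd (-1.12) in mutants and chrna1 (-0.68) and chrne (-1.12) in wild types for 36 against 24 hpf were gained there, and that of chrnb1 in mutants for 48 against 24 hpf was lost (-0.83). The cause was not tested. Of 4068 values under alternatives, 129 uncalled ones changed sign and stayed uncalled. Same-numbered embryos of the 2 genotypes did not deviate together over all tested genes (21 pairs, r from -0.05 to 0.07). These values gave no sign of pairing by number, but a weak shared batch could be missed. The fit with a replicate block called 0, 0 and 0 members between genotypes at the 3 ages. Between ages it called the same counts of members as the fit without the block. Over all genes it called 16, 104 and 354, against 20, 116 and 362 without it. With only the groups compared the counts over all genes were 8, 162 and 634, with DESeq2 38, 163 and 471, and with limma voom 5, 151 and 492. For the difference of the genotype effect between 48 and 24 hpf, 10 genes were called, against 4 with limma voom, 36 with DESeq2, 21 without the 3 shallow libraries, 29 with the age score and 19 with the contractile list. For 36 against 24 hpf the contractile list as covariate gave 453 calls against 1818 in mutants and 587 against 1392 in wild types, and for 48 against 24 hpf 1605 against 4552 and 1864 against 4523. Depth limits what can be said of rapsn and chrnb1l, each under the filter on low counts.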
